A study of Saccharomyces cerevisiae with 2 samples.

Results

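The genes described here are 8 genes of the budding yeast Saccharomyces cerevisiae grouped under glycerol uptake and breakdown. They are STL1 (YDR536W), GUP1 (YGL084C), GUP2 (YPL189W), GUT1 (YHL032C), GUT2 (YIL155C), GCY1 (YOR120W), DAK1 (YML070W) and DAK2 (YFL053W). They were chosen by locus name, not by their values. All 8 were found among the 7163 features of the deposited table, and 8 of 8 reached 1 FPKM (fragments scaled by gene length and by counted reads) in at least 1 strain. RNA was sequenced from 2 strains, UV02_HG and MF02. The labels give UV02_HG by its name alone as genotype, and MF02 as wild type. Both strains grew in 40% (w/v) glucose and were sampled in mid-exponential phase, so there is no culture at low glucose and none on glycerol. The series title speaks of a strain with high glucose tolerance, and the design implies a single comparison, UV02_HG against MF02.

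Yeast makes glycerol as an osmotic protectant and can also use it. STL1 encodes a plasma membrane symporter that brings glycerol in with protons. In the main route of use, the glycerol kinase Gut1 makes glycerol 3-phosphate, which the mitochondrial flavoprotein dehydrogenase Gut2 oxidises to dihydroxyacetone phosphate. In the other route, an oxidoreductase such as Gcy1 turns glycerol into dihydroxyacetone, which the kinases Dak1 and Dak2 phosphorylate. GUP1 was first named for glycerol uptake, and its product is now known as a membrane-bound O-acyltransferase that remodels glycosylphosphatidylinositol (GPI) lipid anchors. GUP2 is its paralogue. In laboratory strains glucose represses GUT1, GUT2 and STL1, and osmotic stress induces STL1.

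The labels give 1 sample per strain, with 2 columns of FPKM values. The design speaks of duplicates, but the columns were treated as runs of that sample. No difference below therefore has a replicate check, and no p-value was computed. Counted reads came to 12507299 and 13040931 in the UV02_HG columns and to 12796339 and 15144991 in the MF02 columns. Ratios are log2 of UV02_HG over MF02 on the scale of mean FPKM + 1, and a gene is called lower or higher when the difference is at least 2-fold. The median ratio of the 6291 features with at least 1 FPKM was -0.89, and it followed gene length, with a median of 0.83 for the 841 genes no longer than 500 nt and of -1.53 for the 888 genes between 1501 and 2000 nt. Each ratio is therefore also given against its length class, as the ratio minus the median of a window reaching 100 genes to either side in coding length, called the length-relative ratio. The 8 genes have coding lengths from 939 to 2130 nt, where that window median lay between -1.61 and -0.95.

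The letters upstream of the start codon are shown for both genes of the main route and both dihydroxyacetone kinase genes, the pairs that the results below turn on. They are the 250 bases before the start codon in the R64 assembly (RefSeq), read 5′ to 3′ on the strand of the gene. GUT1 (chromosome VIII) and GUT2 (chromosome IX) lie on the minus strand, and DAK1 (chromosome XIII) and DAK2 (chromosome VI) on the plus strand. The authors' build is not given in the sources used here, so coordinates are left out. Capitals mark matches on either strand to any of 5 short motifs: the stress response element AGGGG, the Mig1 core GCGGGG, the Adr1 core TTGGNG, the CRE-type motif TGACGT and the Ino2-Ino4 core CATGTGAA.
GUT1: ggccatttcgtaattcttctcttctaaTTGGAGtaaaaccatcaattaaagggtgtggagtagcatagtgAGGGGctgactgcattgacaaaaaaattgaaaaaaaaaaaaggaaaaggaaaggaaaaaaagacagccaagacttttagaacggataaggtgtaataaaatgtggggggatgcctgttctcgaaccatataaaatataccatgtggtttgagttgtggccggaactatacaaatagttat
GUT2: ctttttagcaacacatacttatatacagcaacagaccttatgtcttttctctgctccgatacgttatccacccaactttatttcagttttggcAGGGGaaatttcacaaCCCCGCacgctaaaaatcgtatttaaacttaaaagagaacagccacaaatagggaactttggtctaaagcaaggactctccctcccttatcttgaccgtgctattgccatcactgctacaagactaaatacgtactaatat
DAK1: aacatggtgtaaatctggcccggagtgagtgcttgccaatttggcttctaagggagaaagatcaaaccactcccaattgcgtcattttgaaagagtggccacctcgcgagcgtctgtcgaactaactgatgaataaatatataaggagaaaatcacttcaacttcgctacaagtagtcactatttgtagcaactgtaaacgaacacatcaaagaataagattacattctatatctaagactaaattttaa
DAK2: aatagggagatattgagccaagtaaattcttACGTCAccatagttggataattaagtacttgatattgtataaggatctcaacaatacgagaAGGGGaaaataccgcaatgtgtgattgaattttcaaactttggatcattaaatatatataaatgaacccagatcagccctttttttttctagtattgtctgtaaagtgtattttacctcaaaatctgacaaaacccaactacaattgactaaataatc

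Of these motifs, AGGGG stood in the upstream window of 4 of the 8 genes (STL1, GUT1, GUT2 and DAK2), and in 18.8% of 6001 windows of the same length before protein-coding genes. GCGGGG, the core bound by the glucose repressor Mig1, was found before GUT2 and in 2.32% of all windows. TTGGNG, read by the activator Adr1, was found before GUT1 and GUP2 and in 27.3% of all windows. TGACGT stood before DAK2 and, as overlapping matches on both strands, before GUP2, against 5.73% of all windows. CATGTGAA was in the window of none of the 8 genes and in 0.60% of all windows. DAK1, GUP1 and GCY1 held no match to any of the 5 motifs. A match describes letters in this window and is not a binding site, and the printed matches do not overlap.

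Across the 8 genes, UV02_HG was at least 2-fold lower in 3 (DAK1, GUT1 and DAK2) and higher in 0, against 47.2% lower and 14.7% higher among all features with at least 1 FPKM. Their median log2 ratio was -0.84, close to the -0.89 of all features. Both UV02_HG columns lay below both MF02 columns in 5 genes (STL1, GUP1, GUT1, DAK1 and DAK2), and the columns overlapped in GUP2, GUT2 and GCY1. Among all features, 56.4% had both UV02_HG columns below. Relative to genes of like length, 1 gene was at least 2-fold lower (DAK1, background 16.7%) and 2 were higher (GUP2 and GUT2, background 17.1%). None of these 3 calls held over all column comparisons. GUT2, at 1.49, ran from -0.07 to 2.88. DAK1 (-1.31 to -0.87) and GUP2 (0.70 to 1.58) kept their sign but were short of 2-fold in part of the comparisons. With GC content allowed for too, DAK1 was at -0.87 and GUP2 at 0.72, both short of 2-fold. Length-relative ratios were positive in 7 of the 8 genes, with a median of 0.50 that was 0.13 with MF02 column 1 alone and 0.99 with MF02 column 2 alone. By construction, genes split about evenly around 0 in this measure. The positive sign did not hold over the column comparisons in GUT1, GUT2 and DAK2. Upper quartile scaling, which raised the median of all features by 0.63, left GUT1 (-0.71), DAK2 (-0.46), GUP1 (-0.29), STL1 (-0.09) and DAK1 (-1.95) negative and turned GUT2 (0.50), GCY1 (0.23) and GUP2 (0.18) positive. In bulk RNA, a lower level in each cell and fewer cells that express a gene cannot be told apart.

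**Figure D1:**
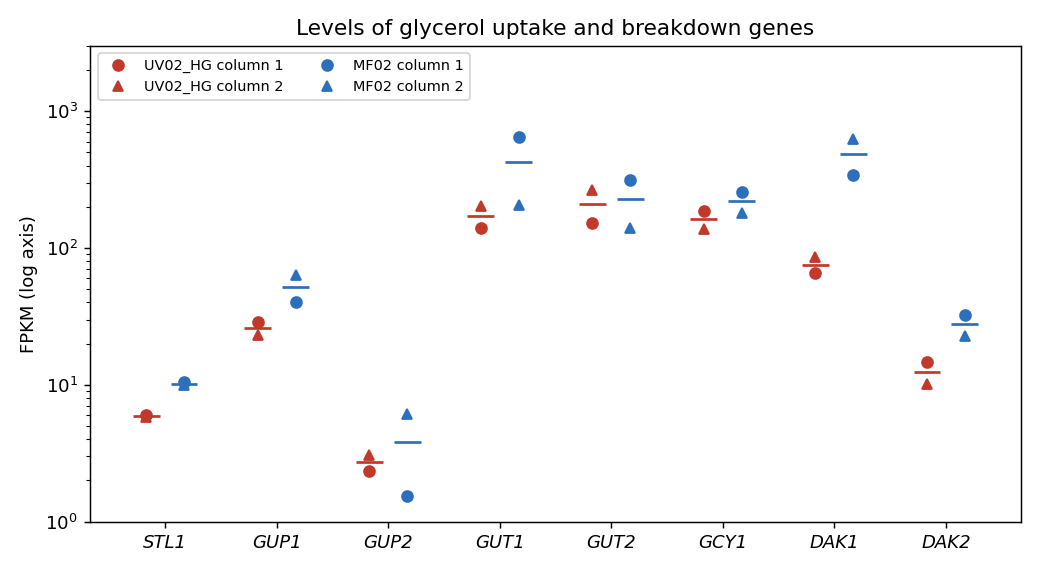
FPKM (log axis) of each of the 8 genes in the 2 columns of UV02_HG (red, left) and of MF02 (blue, right), with horizontal lines at the strain means. DAK1 shows the widest gap between the strains, while the columns of GUP2, GUT2 and GCY1 overlap.

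The 8 genes spanned a wide range of levels. In UV02_HG the strain means ran in the order GUT2 (209 FPKM), GUT1 (171), GCY1 (162), DAK1 (75.7), GUP1 (25.9), DAK2 (12.5), STL1 (5.93) and GUP2 (2.71). In MF02 DAK1 stood first with 483 FPKM, followed by GUT1 (429), GUT2 (228), GCY1 (219), GUP1 (52.1), DAK2 (27.6), STL1 (10.2) and GUP2 (3.84). The column values of GUT2, GUT1 and GCY1 overlapped in UV02_HG, and those of DAK1 and GUT1, of GUT1 and GUT2 and of GUT2 and GCY1 overlapped in MF02, so the FPKM values of these neighbours in the order do not part beyond the columns' spread, although GUT2 and GUT1 kept 1 order within the columns of each strain. DAK1 was below GUT2, GUT1 and GCY1 in both UV02_HG columns, whereas it had the highest mean of the 8 in MF02.

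STL1, the glycerol importer, was weakly expressed in both strains. It had 6.03 and 5.83 FPKM in UV02_HG, against 10.5 and 9.92 FPKM in MF02, on 129 and 130 reads in UV02_HG and 229 and 257 in MF02. The UV02_HG columns were both lower, and the columns of each strain lay closer together than in any other of the 8 genes. Its log2 ratio was -0.69 (-0.75 to -0.64 when each UV02_HG column was set against each MF02 column, 4 comparisons in all), which is 1.62-fold lower and short of 2-fold. The ratio of reads over library totals was -0.78 with an exact binomial 95% interval from -1.002 to -0.56, which covers counting error only. Most genes of this length were lower still: 157 of the 200 genes nearest in length had a lower ratio, and the length-relative ratio was 0.78. The deposited ratio turned positive with the trimmed mean of M values (0.036) and when centred on the median feature (0.20).

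GUP1, the O-acyltransferase gene, had 28.7 and 23.1 FPKM in UV02_HG, against 40.1 and 64.03 FPKM in MF02. Its log2 ratio was -0.98 (-1.43 to -0.47), just short of 2-fold, and its length-relative ratio was 0.49. The paralogue GUP2 had the lowest level of the 8, with 2.36 and 3.06 FPKM in UV02_HG, against 1.54 and 6.13 FPKM in MF02. The UV02_HG values of GUP2 lay between those of MF02, whose columns rested on 36 and 170 reads. GUP2 therefore ran from -1.09 to 0.68 over the column comparisons around a ratio of -0.38, and it stood at 0.55 with MF02 column 1 alone. Its length-relative ratio was 1.05 (0.70 to 1.58), and 174 of 200 genes of like length had a lower log2 ratio, but at this level the pseudocount pulls ratios towards 0. The coding sequences of GUP1 and GUP2 align at 65.7% identity with no shared run over 15 nt, and none of the 8 genes shares a 50 nt stretch with another place in the R64 genome or overlaps another annotated gene.

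GUT1, the glycerol kinase gene, had 139 and 202 FPKM in UV02_HG, against 652 and 206 FPKM in MF02. GUT2, the dehydrogenase gene of the next step, had 153 and 266 FPKM in UV02_HG, against 316 and 140 FPKM in MF02. MF02 column 1 was the highest of the 4 columns in both genes, and MF02 column 2 was near the UV02_HG values in GUT1 and the lowest of all in GUT2. GUT1 had a log2 ratio of -1.32 (-2.22 to -0.03), or 2.51-fold lower, which was -1.93 with MF02 column 1 alone and -0.27 with MF02 column 2 alone. Its length-relative ratio was 0.24 (-1.32 to 1.90), and 126 of 200 genes of like length had a lower log2 ratio. GUT2 had a log2 ratio of -0.12 (-1.04 to 0.92), which was -0.59 with MF02 column 1 alone and 0.58 with MF02 column 2 alone. The 2-fold difference of GUT1 thus rested on MF02 column 1, and GUT2 had no direction between the strains that held over the columns. Depth was not the limit, since the smallest GUT1 or GUT2 column held 3704 reads.

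The gap between the MF02 columns in GUT1 and GUT2 ran against the other genes of their length. The log2 ratio of MF02 column 2 over MF02 column 1 was -1.66 for GUT1, against a median of 1.20 for genes of 2001 to 3000 nt. For GUT2 it was -1.17, against a median of 0.83 for genes of 1501 to 2000 nt. Among the 200 genes nearest in length, 1 had a lower column ratio than GUT1 and 0 had a lower one than GUT2. DAK2 (-0.49, with 13 of 200 lower), STL1 (-0.07, with 30 of 200 lower) and GCY1 (-0.51, with 40 of 200 lower) also lay below the trend. DAK1 (0.86) and GUP1 (0.66) lay near it, and GUP2 (1.49) lay above it. Among the genes for the external NADH dehydrogenases, the other route by which cytosolic NADH feeds the respiratory chain, NDE1 (-0.71) and NDE2 (-1.45) had negative MF02 column ratios as well. Negative values were not particular to these routes: CAT8, a regulator gene, and AQY3, the neighbour of DAK2, had them too. In UV02_HG, column 2 over column 1 was 0.54 for GUT1 and 0.79 for GUT2, above 180 and 196 of their 200 genes of like length. Column numbers carry no order between or within strains. The design speaks of duplicates, but whether the columns come from separate cultures is not given in the sources used here. What sets the MF02 columns apart in these genes was not tested.

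**Figure D2:**
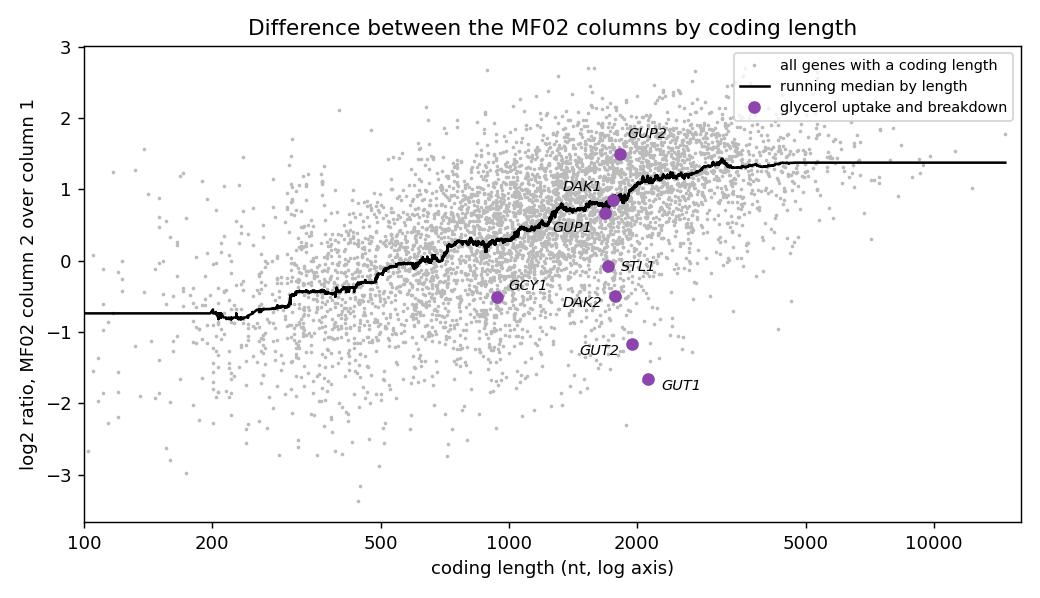
Log2 ratio of MF02 column 2 over MF02 column 1 against coding length (nt, log axis) for all genes with a coding length (grey), with the running median by length (black) and the 8 genes (purple). GUT1 at -1.66 and GUT2 at -1.17 lie at the lower edge of the genes of their length.

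Within a column, ratios between genes do not depend on how the library was scaled. GUT2 over GUT1 was 1.10 and 1.31 in UV02_HG, against 0.48 and 0.68 in MF02. The dehydrogenase gene was thus above the kinase gene in both UV02_HG columns and below it in both MF02 columns. The coding lengths differ by 180 nt, and the window medians of the strain ratio at these lengths were -1.61 for GUT2 and -1.56 for GUT1.

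GCY1, whose product oxidises glycerol to dihydroxyacetone, had 187 and 138 FPKM in UV02_HG, against 257 and 181 FPKM in MF02. The higher UV02_HG column lay just above the lower MF02 column. Its log2 ratio of -0.43 (-0.90 to 0.05) was short of 2-fold and its length-relative ratio was 0.52 (0.05 to 1.03). The sign of the deposited ratio turned positive under upper quartile scaling (0.23), trimmed mean of M values scaling (0.35) and centring (0.46). The other aldo-keto reductase genes stood lower: 4 of 5 (GRE3, YDL124W, YPR1 and ARA1) were at least 2-fold lower (47.2% of all features), also relative to length (16.7% of genes), and the list median was -2.37. The exception was YJR096W, with overlapping columns and a log2 ratio of 0.59. That ratio turned to -0.47 with equal FPKM totals and rose to 1.24 under upper quartile scaling, 1.33 with the trimmed mean of M values and 1.48 when centred. Relative to length YJR096W was at least 2-fold higher (17.1% of genes), at 1.27 (0.44 to 2.18). YPR1, a paralogue of GCY1 with the same coding length of 939 nt, had 104 and 48.02 FPKM in UV02_HG, against 295 and 500.03 FPKM in MF02, a log2 ratio of -2.37. GCY1 over YPR1 within a column was 1.81 and 2.86 in UV02_HG, against 0.87 and 0.36 in MF02. At equal length, GCY1 was thus the more abundant transcript in UV02_HG and YPR1 in MF02.

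DAK1, the main dihydroxyacetone kinase gene by level, gave the largest difference of the 8. It had 65.7 and 85.7 FPKM in UV02_HG, against 343 and 622 FPKM in MF02. Both UV02_HG columns were far below both MF02 columns, on 1442 and 1961 reads in UV02_HG and 7710 and 16538 in MF02. Its log2 ratio was -2.66 (-3.22 to -1.99), or 6.31-fold lower, and the read ratio was -2.70 with an exact binomial 95% interval of -2.76 to -2.65 for counting error only. DAK1 was the 1 gene of the 8 past 4-fold, as were 17.8% of all features. Of the 200 genes of like length, 24 had a lower ratio, and its length-relative ratio was -1.06 (-1.31 to -0.87). Its ratio was negative under all 13 alternatives run for it, from -3.81 to -0.87.

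DAK2, the other dihydroxyacetone kinase gene, had 14.8 and 10.2 FPKM in UV02_HG, against 32.5 and 22.8 FPKM in MF02. Both UV02_HG columns were lower, with a log2 ratio of -1.09 (-1.58 to -0.59), or 2.12-fold. It was short of 2-fold with MF02 column 2 alone (-0.82), with UV02_HG column 1 alone (-0.86) and under upper quartile scaling (-0.46), the trimmed mean of M values (-0.35) and centring (-0.20). Its length-relative ratio was 0.39 (-0.61 to 1.32), and 67 of its 200 genes of like length had a higher ratio. DAK1 over DAK2 within a column was 4.45 and 8.41 in UV02_HG, against 10.6 and 27.3 in MF02. DAK1 was the more abundant of the pair in all 4 columns, and its excess was smaller in both UV02_HG columns. The coding lengths differ by 21 nt, and the window medians of the strain ratio at these lengths were -1.60 for DAK1 and -1.48 for DAK2. Their coding sequences align at 61.3% identity with no shared run over 20 nt.

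**Figure D3:**
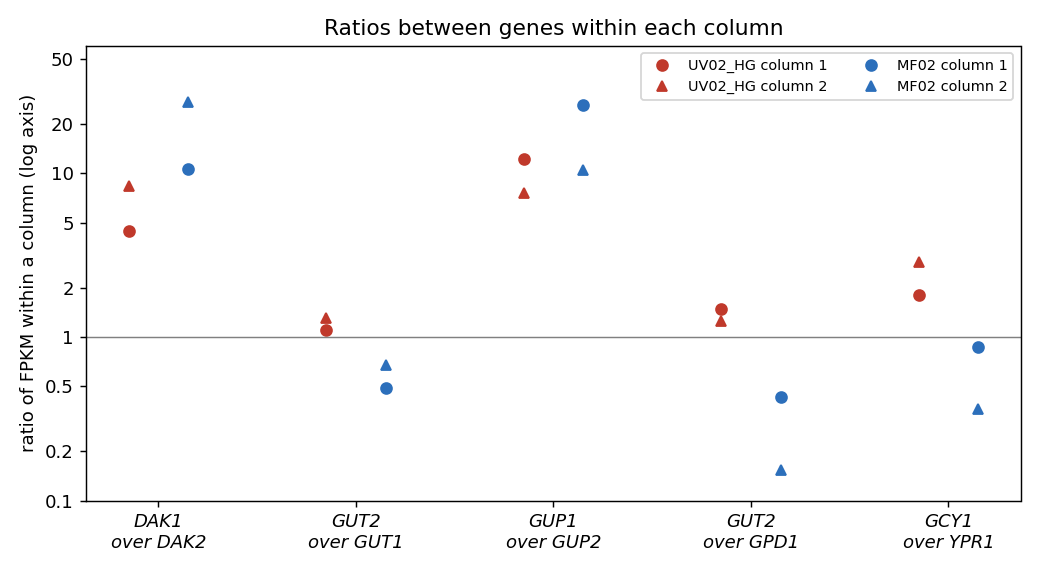
Ratio of the FPKM of 2 genes within each column (log axis), for UV02_HG (red, left) and MF02 (blue, right). The UV02_HG columns lie below the MF02 columns for DAK1 over DAK2 and above them for GUT2 over GUT1, GUT2 over GPD1 and GCY1 over YPR1, and GUP1 over GUP2 overlaps.

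**Figure D4:**
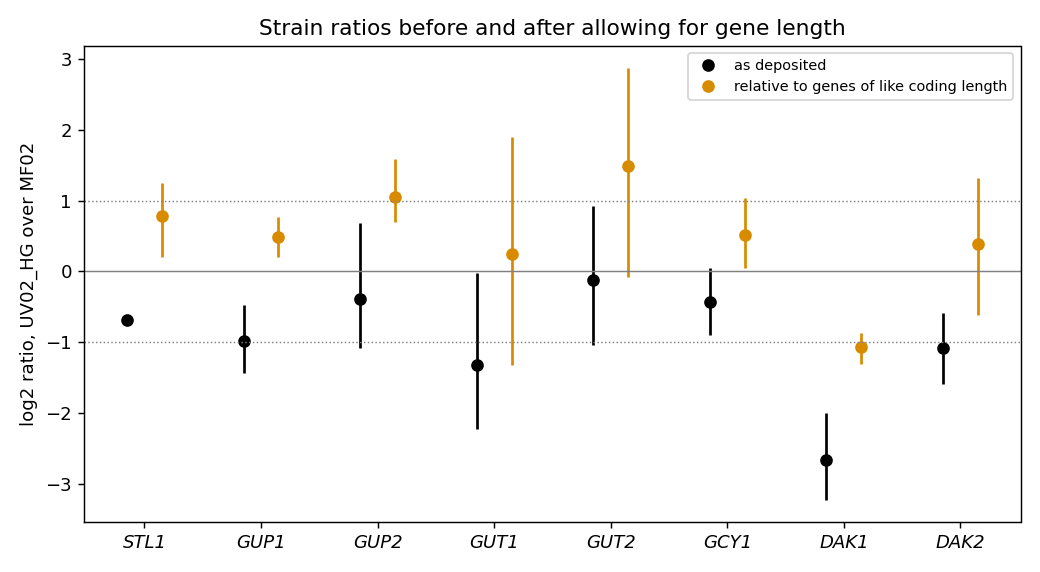
Log2 ratio of UV02_HG over MF02 for each gene as deposited (black) and relative to genes of like coding length (orange), with lines spanning the 4 column comparisons and dotted lines at 2-fold. The deposited values of all 8 genes are negative, STL1, GUP2, GUT2 and GCY1 turn positive when centred on the median feature, and relative to length DAK1 alone is below 0.

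The genes of the opposite pathway, glycerol synthesis and export, stood lower as a list. All 7 stood at least 2-fold lower in UV02_HG (47.2% of all features did). All 7 were below genes of like length, where genes split about evenly by construction, and this sign held over the column comparisons. GPP1, RGC1 and GPP2, 3 of the 7, were below by at least 2-fold (16.7% of genes), but GPP2 ran from -1.93 to -0.41. The deposited ratio of GPP2 was short of 2-fold under upper quartile scaling (-0.99), the trimmed mean of M values (-0.80) and centring (-0.82). With GC content allowed for beside length, all 7 stayed below 0. Only GPP1 (-2.35) and RGC1 (-1.24) were then past 2-fold, while GPD1 was at -0.46 and RGC2 at -0.10. The uptake and breakdown genes had a median log2 ratio of -0.84 and a median length-relative ratio of 0.50 (0.13 or 0.99 with MF02 column 1 or column 2 alone), against -2.34 and -0.98 for the synthesis and export genes. Over the column comparisons the median log2 ratio ran from -0.87 to -0.61 for uptake and breakdown and from -2.63 to -1.79 for synthesis and export. The phosphatase gene GPP1 (-3.44), the channel regulator gene RGC1 (-3.08) and the glycerol phosphate dehydrogenase gene GPD1 (-2.38) had the largest ratios. No test was run on the difference between the lists. Within a column, GUT2 over GPD1 was 1.49 and 1.26 in UV02_HG, against 0.43 and 0.15 in MF02. GUT1 over GPD1 was 1.36 and 0.96 in UV02_HG, against 0.89 and 0.23 in MF02. GPD1 makes glycerol 3-phosphate from dihydroxyacetone phosphate and Gut2 runs that step the other way. GUT2 and GUT1 thus stood higher against GPD1 in UV02_HG in every column comparison, although GPD1 is 774 nt shorter than GUT2 and 954 nt shorter than GUT1.

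**Figure D5:**
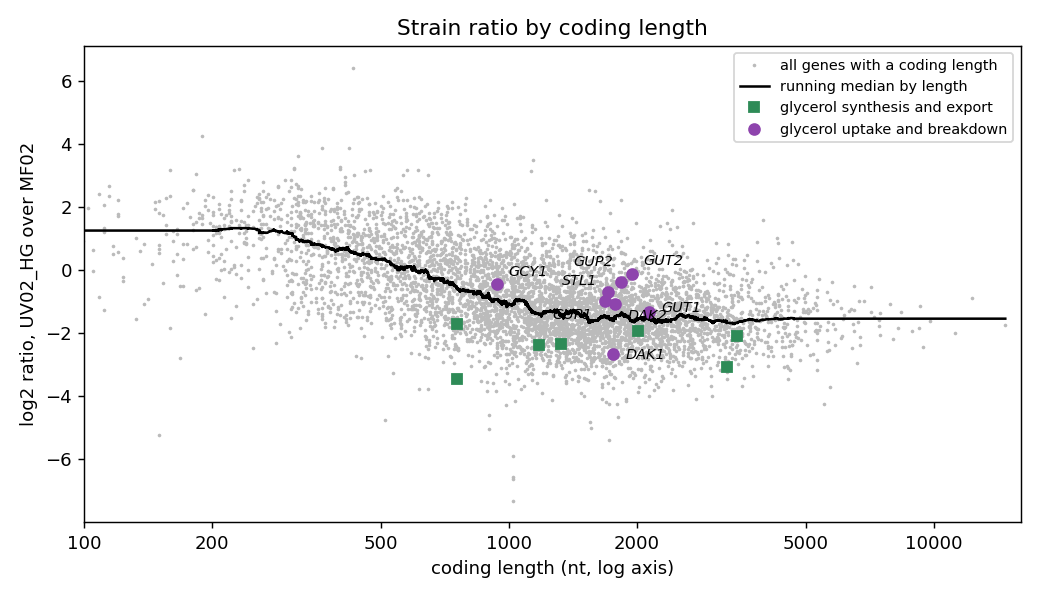
Log2 ratio of UV02_HG over MF02 against coding length (nt, log axis) for all genes with a coding length (grey), with the running median by length (black), the 8 uptake and breakdown genes (purple circles) and the 7 synthesis and export genes (green squares). Of the purple circles DAK1 lies below the running median and 7 lie above it, while all 7 squares lie below it. By construction, genes split about evenly around this line, and GUT1, GUT2 and DAK2 changed side over the column comparisons.

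Among 13 genes for regulators of glycerol use, 10 stood at least 2-fold lower in UV02_HG and 0 higher (47.2% and 14.7% of all features), with a median of -1.65. Relative to length, 2 were at least 2-fold lower and 2 higher (16.7% and 17.1% of genes), with a median of -0.12. INO2, whose product with Ino4 activates GUT1 and phospholipid genes, had 2.53 and 5.20 FPKM in UV02_HG, against 48.2 and 67.5 FPKM in MF02. The UV02_HG values of INO2 rested on only 29 and 62 reads. Its log2 ratio was -3.60 (-4.28 to -2.99) and its length-relative ratio -2.60 (-3.30 to -1.98). INO4 was short of 2-fold, with a log2 ratio of 0.37 that turned to -0.76 with equal FPKM totals. MIG1, the glucose repressor gene, had a log2 ratio of -3.05 (-1.61 relative to length), and RSF2, a zinc finger gene needed for growth on glycerol, had -2.45 (-0.90 relative to length). CAT8, an activator gene for growth without glucose, had 20.1 and 21.02 FPKM in UV02_HG, against 14.7 and 7.09 FPKM in MF02. Its log2 ratio was 0.86 (-0.12 with equal FPKM totals) and its length-relative ratio 2.41, with both UV02_HG columns above both MF02 columns. HOT1, an activator gene for STL1 under osmotic stress, had a log2 ratio of -0.23 with overlapping columns and a length-relative ratio of 1.33 (0.86 to 1.69). The external NADH dehydrogenase genes had log2 ratios of -0.82 (NDE1, -1.34 to -0.25) and -1.27 (NDE2, -2.20 to -0.07). Their length-relative ratios were 0.67 (-0.40 to 1.64) and 0.25 (-1.20 to 1.79), so neither sign held over the columns. NDE1 has the same coding length as GUP1, 1683 nt, and a ratio near its -0.98.

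Of 6 other genes for membrane-bound O-acyltransferases and GPI lipid remodelling, 4 were at least 2-fold lower, against 47.2% of all features, with a median of -1.27 and a median length-relative ratio of 0.18. ARE2 (-1.74), CWH43 (-1.56) and ARE1 (-1.47) had the largest ratios. The GPI remodelling genes PER1 (-0.05) and BST1 (-0.44) had overlapping columns, and GUP1, at -0.98, lay within the range of this list.

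The genes next to the 8 on their chromosomes had log2 ratios from -2.03 to 2.09. DAK1, on chromosome XIII, had a length-relative ratio of -1.06, against 0.37 for COG8 and 0.14 for POB3, its neighbours, whose columns overlapped at log2 ratios of -1.06 and -1.36. The median length-relative ratio of that chromosome was 0.37. Beside GUT2, UBP7 had a log2 ratio of -1.60 and IMP21 of 1.66. GUT1 lies on chromosome VIII, whose genes had a median length-relative ratio of -0.32, between RPL8A (-1.87), which has a close copy that may share reads, and GOS1 (0.66). Beside GUP1, SCY1 was higher at 1.89, and beside GUP2, COA2 at 2.09, which as a gene of 207 nt stood at 0.80 relative to length. STL1 lay between FIT1 (-0.56) and PAD1 (-0.22), GCY1 between RIO1 (-1.47) and PFY1 (0.91), and DAK2 between AQY3 (-2.03), which encodes a water and glycerol channel, and ZNF1 (-0.31).

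For each of the 8, the gene most like it in level over the 4 columns was sought among genes within 10% of its length, by the root mean square distance on the log2(FPKM + 1) scale. Close partners were found for GUP2 (ORC3, 0.15), GCY1 (MHO1, 0.15), GUP1 (ALG8, 0.17), STL1 (SNG1, 0.22) and DAK2 (SGA1, 0.24). For DAK1 it was SSB2 (0.31), which has a near-identical copy that may share its reads. The nearest genes to GUT2 (CYB2, 0.50) and GUT1 (GSY1, 0.52) were farther off. CYB2 had 124 and 213 FPKM in UV02_HG, against 291 and 259 FPKM in MF02, and so lacked the low MF02 column 2 value of GUT2.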

How the data were processed

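The authors deposited FPKM values for 7163 features, 2 columns per strain per the file headers. Another 4 empty rows were not used here. Tools named in the submitters' processing notes are TopHat2 2.0.12, Bowtie2 2.2.3 and HTSeq 0.6.1. For the build and the strand setting, the sources used here give nothing. With 1 sample per strain in the labels, columns were averaged as runs of a sample, and no test was run.

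Locus names, coding lengths, neighbours and upstream sequences came from R64 (RefSeq). R64 matched 6056 features, 6004 with a coding length. FPKM times coding length gave whole reads, within 0.02, for 99.9% of genes with reads in each column, which gave the library totals. A count test on these reads was not run, with 1 sample per strain. Ratios used a pseudocount of 1 FPKM. Kept were features whose mean reached 1 FPKM in UV02_HG or MF02, 5689 of them with a coding length. Read ratios carry exact Clopper-Pearson 95% intervals, for counting error only. Length-relative ratios subtract the median of a window of 100 genes to either side in length. They were checked on simulated data with a length trend planted alike in both UV02_HG columns and not in MF02. A length trend between the columns of a strain, as seen in MF02, was not simulated, so the check does not cover it.

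The genes named are the 8, up to 3 per related list with the largest ratio and those on the other side of 0, chromosome neighbours and the nearest gene in level. ARA1, HOT1, PER1, BST1, GPP2 and RGC2 were added after their values were seen. Genes and lists were chosen with earlier results of these data known. The alternatives were other pseudocounts, filters, scalings, thresholds and windows, single columns, and length and GC content. Software was scipy 1.17.1, numpy 2.4.6, Biopython 1.88, pandas 2.3.3 and matplotlib 3.10.9 under Python 3.11.15.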

Additional observations from a re-analysis of the deposited data

How the results depend on the processing

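No paired analysis was possible because there is 1 sample per strain. The direction of DAK1 was the one of the 8 that held under all 13 alternatives. The median log2 ratio of the 8 genes, -0.84, was -1.75 with columns rescaled to equal FPKM totals, -0.19 with upper quartile scaling, -0.044 with the trimmed mean of M values and 0.055 centred on the median feature. It was -0.68 with a pseudocount of 5 FPKM, 0.50 against genes of like length and 0.69 when GC content was allowed for too. With MF02 column 1, MF02 column 2 or UV02_HG column 1 alone it was -0.69, -0.74 and -0.75. The median length-relative ratio, 0.50, was 0.31 with the larger pseudocount, 0.13, 0.99 and 0.70 with these columns alone, and 0.69 with GC content. A minimum of 5 FPKM, which left 7 of the 8 genes, gave 0.53.

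The count of genes at least 2-fold lower, 3, was 8 with equal FPKM totals, 1 under upper quartile scaling, centring, the trimmed mean of M values, length or a 4-fold threshold, 0 relative to length and GC content and 5 at 1.5-fold. It was 4 with a pseudocount of 0.1 FPKM or UV02_HG column 2 alone, and 2 with a pseudocount of 5 FPKM, MF02 column 2 alone or UV02_HG column 1 alone. The count of higher genes, 0, was 2 relative to length and 1 with GC content added. GUT1 turned to 0.24 and 0.66 and DAK2 to 0.39 and 0.88 under these adjustments.

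Over all features, 2967 were lower and 927 higher. With equal FPKM totals these counts were 4307 and 296. Upper quartile scaling gave 1720 lower and 1495 higher, centring 1296 and 1797, and the trimmed mean of M values 1410 and 1658. A 4-fold threshold gave 1118 lower and 307 higher, and 949 and 779 were lower relative to length and with GC content added. These scalings moved the median of all features by -0.93 (equal FPKM totals), 0.63, 0.89 and 0.79, and higher features made up 23.8% of those past 2-fold as deposited and 6.43%, 46.5%, 58.1% and 54.04% under them. Depth limits STL1 and GUP2 most, with 36 reads for GUP2 in MF02 column 1.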
